A study of Mus musculus with 17 samples.

Results

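Transcripts of the LIF and STAT3 pathway were followed in mouse embryonic stem cells through 8 genes, Lifr, Il6st, Stat3, Socs3, Gbx2, Junb, Pim1 and Pim3. They were taken by symbol from a table of read counts for 20621 genes, and all 8 were among the 15365 genes that passed the filter on low counts. The 17 libraries were made from total RNA of E14 cells, a mouse embryonic stem cell line, in 2 genotypes: WT, and RNAPII-mut, with the genotype slow/slow, in which RNA polymerase II elongates slowly, as the series title puts it, called the mutant below. All cells grew without feeder cells on gelatine in 10% serum with 1000 U per mL LIF, so LIF was present in each of the 8 groups. The groups differed in genotype and in the days, 0, 1, 2 or 7, for which 2i was added to that medium. 2i is a pair of inhibitors, here 1 uM PD0325901, which blocks the kinase MEK, and 3 uM CHIR99021, which blocks the kinase GSK3. The mutant at day 1 had 3 libraries and the other 7 groups had 2, and the labels do not say whether they came from separate cultures. The p-values therefore measure the spread between these libraries, which may be technical, and the mutation cannot be told apart from the cell line that carries it.

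LIF, a cytokine of the IL-6 family, binds its own receptor chain, encoded by Lifr, and the shared signalling chain gp130, encoded by Il6st. The pair activates JAK kinases, which phosphorylate the transcription factor STAT3, and STAT3 then enters the nucleus. Socs3 is a direct STAT3 target whose protein blocks the receptor complex, a negative feedback. In mouse embryonic stem cells this pathway sustains self-renewal, and Gbx2 (a homeobox factor), Junb (a subunit of the AP-1 transcription factor), Pim1 and Pim3 (serine/threonine kinases) are known as genes that respond to it. Several of these genes also respond to the MEK and ERK kinases or to other signals, and a transcript level does not measure phosphorylated STAT3.

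The promoters of Socs3, Pim3 and Pim1 are shown because Socs3 held the only match to the STAT motif among the 8 genes, and Pim3 and Pim1 were the pair with the firmest changes, in opposite directions. These 3 were chosen after the values had been seen, since no gene met the rule of passing the test in each genotype separately. The motif searched was TTCNNNGAA, which reads the same on both strands, within 300 bases around each RefSeq start (250 before and 50 after). Each sequence below runs 5′ to 3′ on the gene's strand and holds only bases that lie before the start and outside the gene's annotated exons, in GRCm38.p6. The capitals mark the motif.
Socs3, chr11:117969452-117969616, minus strand, 165 bases: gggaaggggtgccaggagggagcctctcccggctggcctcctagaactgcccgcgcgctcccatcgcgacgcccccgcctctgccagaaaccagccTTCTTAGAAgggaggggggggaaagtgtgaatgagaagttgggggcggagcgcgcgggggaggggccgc
Pim3, chr15:88861944-88862185, plus strand, 242 bases: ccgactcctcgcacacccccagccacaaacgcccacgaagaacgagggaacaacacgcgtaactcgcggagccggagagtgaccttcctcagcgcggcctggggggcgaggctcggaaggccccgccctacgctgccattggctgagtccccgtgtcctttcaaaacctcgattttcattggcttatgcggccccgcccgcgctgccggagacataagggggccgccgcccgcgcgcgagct
Pim1, chr17:29490535-29490752, plus strand, 218 bases: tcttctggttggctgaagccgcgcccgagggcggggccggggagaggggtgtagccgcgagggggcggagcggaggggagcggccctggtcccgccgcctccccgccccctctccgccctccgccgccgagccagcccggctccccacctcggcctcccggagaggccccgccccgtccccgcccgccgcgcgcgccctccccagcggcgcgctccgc
The Socs3 match, TTCTTAGAA, began 154 bases before the RefSeq start. GENCODE also annotates a Socs3 exon further upstream, so this stretch lies within the gene's span there. Of all 32851 promoter windows of this length, 2726 (8.3%) held the motif. The windows of the other 7 genes, with 2 alternative starts each for Lifr and Pim1, held none, which says only that these letters are not in these windows.

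Levels are given as CPM, counts relative to a library's scaled total. Library totals lay between 47350441 and 56138844 counts. Summed over 8 pluripotency markers, WT replicate 1 of days 0 and 1 held 4510 to 4610 CPM, the other 6 WT libraries 6480 to 9440 and the mutant 6720 to 8560. All libraries therefore held transcripts of pluripotent cells. Within that sum Utf1 lay at 302 to 592 CPM at day 0 and at 17.8 to 109 in 2i. The WT libraries also differed by replicate number. Summed over 11 mesoderm and stromal markers, replicate 1 of days 0 and 1 held 716 to 1080 CPM, the other 6 WT libraries 22.2 to 165 and the 9 mutant libraries 15.2 to 52.5. The 165 was WT day 2 replicate 1, with Acta2, Tagln and Col1a1 at 41.5, 54.6 and 44.5 CPM, against 0, 0.56 and 3.96 in replicate 2. Thy1, Eomes and Mesp1 were lower in that library than in replicate 2 of day 2. It is kept in the fits without replicate 1 of days 0 and 1. Postn, a stromal matrix gene, was at 0 in all 9 mutant libraries and in all 4 of WT replicate 2. By contrast Thy1 was lower in WT replicate 1 of days 0 and 1, at 4.96 and 3.43 CPM, than in replicate 2, at 23.3 and 16.7. Mesp1, at 0.321 CPM or less throughout, was lower there too, and Eomes was lower at day 1 (4.31 against 8.22). In mutant day 7 replicate 1, T and Eomes held 29.5 and 16.1 of the 52.5 CPM. Summed over 9 primitive endoderm markers, WT replicate 2 held 643 to 815 CPM, WT replicate 1 held 191 to 351 and the mutant 99.3 to 288. In WT day 7 replicate 2, Lama1 and Col4a1 held 452 and 308 of the 815 CPM. Within WT replicate 2, Gata6 was at 28.2 CPM at day 0 and 4.61 at day 7, and Gata4, Sox7, Pdgfra and Dab2 were also lower. Lama1, Col4a1, Sox17 and Foxa2 were higher at day 7, so the sum does not follow each marker. Mean changes of the 8 genes at day 7 are therefore also given without replicate 1 of days 0 and 1. That leaves replicate 2 alone for WT at day 0, with its higher primitive endoderm sum, against both WT replicates at day 7. Such a fit thus does not remove the differences between the WT replicates. In bulk RNA, fewer cells of a type and less RNA per cell cannot be told apart.

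Per kilobase of annotated exon, Pim3 and Socs3 were the most abundant of the 8 transcripts before 2i, and the receptors the least. Over the 4 libraries of day 0, the median level per kilobase was 107 CPM for Pim3 and 50.0 for Socs3. It was 28.8 CPM per kilobase for Gbx2, 26.8 for Junb, 22.9 for Pim1 and 14.9 for Stat3, then 7.59 for Lifr and 6.03 for Il6st. Libraries of neighbours in this order overlapped from Socs3 down to Pim1, and again between Lifr and Il6st. Over the 4 libraries of day 7 the order was Pim3 (56.9), Socs3 (45.9), Pim1 (45.6), Stat3 (16.7), Gbx2 (9.95), Junb (9.61), Il6st (7.92) and Lifr (4.77). The median of Pim1 lay below those of Gbx2 and Junb at day 0 and above them at day 7.

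**Figure D1:**
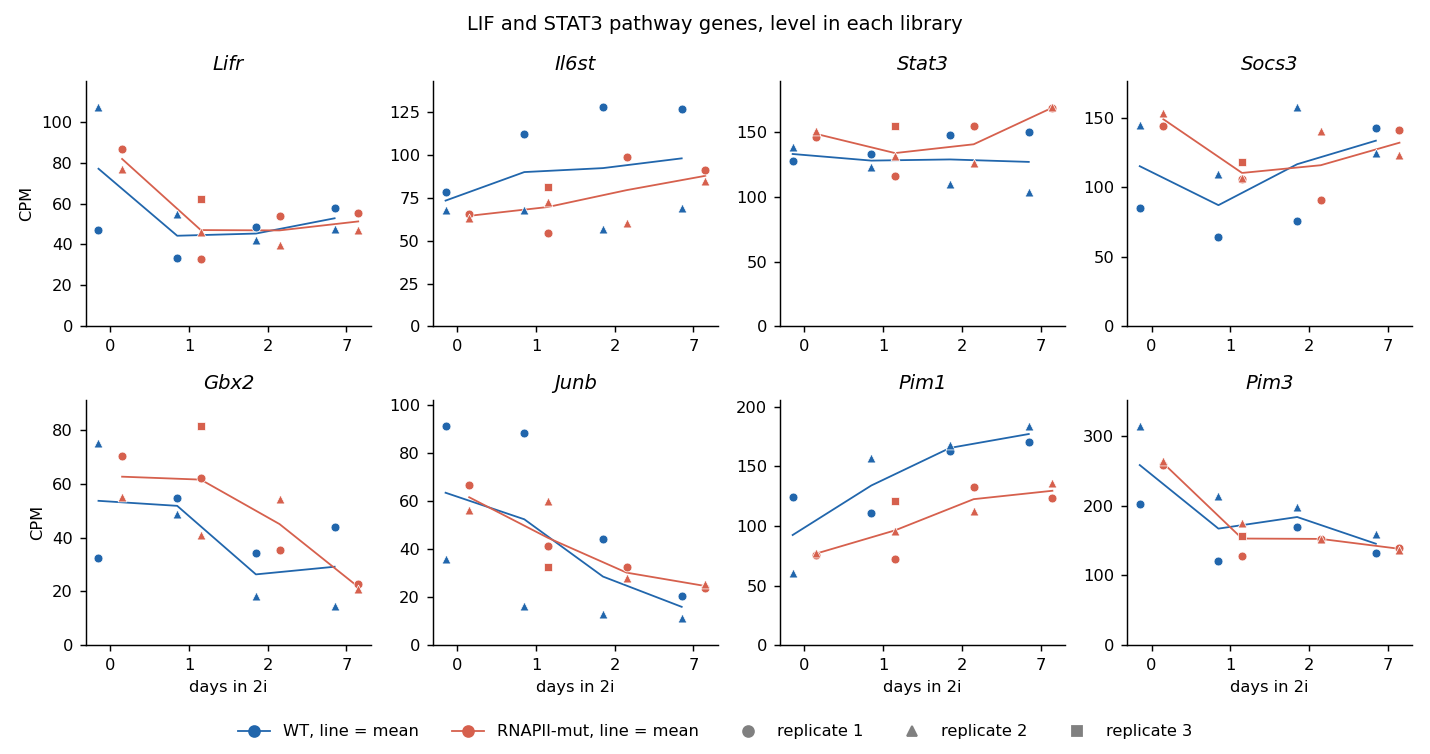
Level of each of the 8 transcripts in CPM (y axis, from 0) against days in 2i (x axis, not to scale), with 1 point per library, shaped by replicate number, and lines through the group means; WT is blue and RNAPII-mut red. Pim3 falls from 202 to 314 CPM at day 0 to 131 to 159 at day 7, Pim1 is higher at day 7 than at day 0 in both genotypes, and the WT libraries of Il6st and Junb separate by replicate number on each day.

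After 7 days of 2i, averaged over both genotypes, Pim3, Junb and Gbx2 were lower, Pim1 was higher, and the receptors, Stat3 and Socs3 did not pass the test. Pim3 was 1.83-fold lower, Junb 3.16-fold lower, Gbx2 2.31-fold lower and Pim1 1.8-fold higher. This comparison is the mean of the WT and the mutant difference from day 0, from the same fit over all 17 libraries, and was added after seeing the data because each genotype alone has few libraries. A gene was called at an adjusted p under 0.05 over all 15365 genes by edgeR's quasi-likelihood test with Benjamini-Hochberg adjustment. Of the 8 genes 4 were called, 1 higher and 3 lower, where 27.3% of all genes tested were called, 13.7% higher and 13.7% lower. The median change of the 8 was -0.29 on the log2 scale, against 0.011 over all genes.

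Taken alone, each genotype gave few calls. In WT at day 7, 0 of the 8 genes were called (12.7% of all genes tested), with 3 at an unadjusted p under 0.05 (Pim3, Pim1 and Junb) and 3 called by DESeq2. With replicate number as a block in edgeR these 3 genes were called in WT, Pim3 at adjusted p = 0.0276, Junb at 0.0437 and Pim1 at 0.0488. In the mutant at day 7, 1 was called, Pim3 (14.2% of all genes tested, 6.96% lower), and 2 were called by DESeq2 and 6 when the fit held only the groups compared. All 8 genes had mutant libraries at day 7 that did not overlap those of day 0, but so did 68.8% of all genes tested. In WT the libraries of Junb, Pim1 and Pim3 did not overlap, with 54.5% for all genes.

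**Figure D2:**
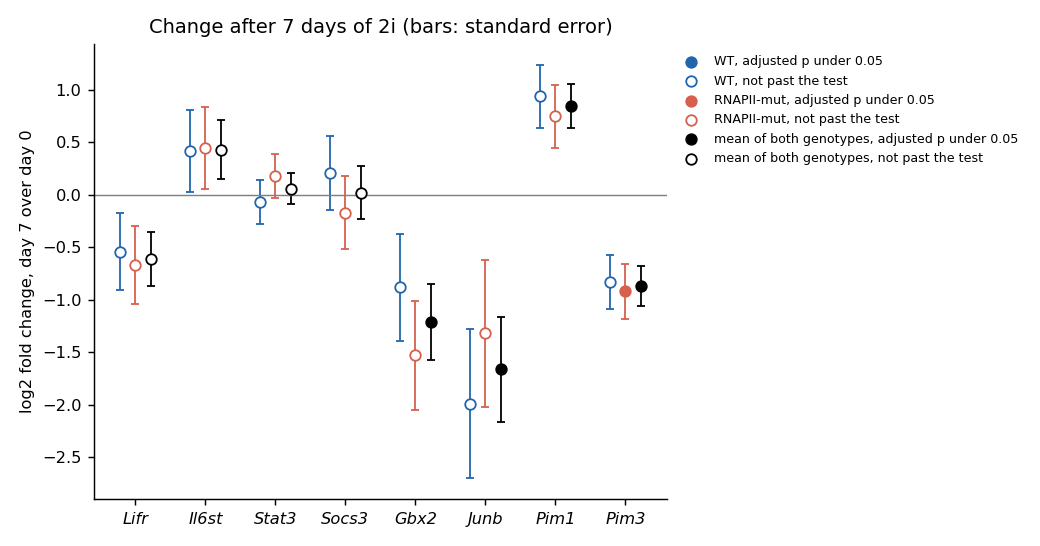
Log2 fold change of each of the 8 transcripts, day 7 over day 0 (y axis; bars are the standard error), for WT (blue), RNAPII-mut (red) and the mean of both (black); filled points passed the test. Gbx2, Junb and Pim3 lie below 0 and Pim1 above 0 in both genotypes, while Stat3 and Socs3 lie close to 0 with opposite signs in WT and mutant.

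The LIF receptor chain Lifr (chromosome 15, 7090614 to 7197489, plus strand, mm10) was at its highest at day 0 in the mutant and in WT replicate 2. It did not pass the main edgeR test at any day, but passed under some other settings. WT replicates 1 and 2 held 47.0 and 107 CPM at day 0, 33.5 and 55.0 at day 1, 48.6 and 42.0 at day 2, and 58.0 and 47.5 at day 7. The mutant held 86.8 and 76.7 CPM at day 0, 32.9, 45.85 and 62.3 at day 1, 53.8 and 39.9 at day 2, and 55.35 and 47.1 at day 7. Both mutant libraries of day 0 lay above all 7 later ones, while the WT libraries of day 0 overlapped the later ones. The mean change of both genotypes was -0.80 (log2, SE 0.25) at day 1, adjusted p = 0.0906, and -0.78 (SE 0.26) at day 2, adjusted p = 0.0789. DESeq2 called Lifr in the mean at both days (adjusted p = 0.0301 and 0.029). At day 7 the mean change was -0.61 (SE 0.26), adjusted p = 0.105. Without WT replicate 1 of days 0 and 1 it was -0.85, with replicate 2 alone, at 107 CPM, standing for WT at day 0. When edgeR was fitted to only the groups compared, the mutant change at day 7 was -0.66 and was called (adjusted p = 0.00573). Within WT the difference of log2(CPM + 0.5) between days 7 and 0 was 0.30 in replicate 1 and -1.16 in replicate 2.

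Il6st, which encodes the shared chain gp130 (chromosome 13, 112464070 to 112510086, plus strand), did not pass the test at any day. In WT, replicate 1 lay above replicate 2 on each day. WT replicate 1 held 78.7, 112, 128 and 127 CPM at days 0, 1, 2 and 7, and replicate 2 held 68.2, 67.9, 56.9 and 69.3. The mutant held 65.6 and 63.6 CPM at day 0, 54.8, 72.8 and 81.6 at day 1, 98.8 and 60.4 at day 2, and 91.1 and 84.8 at day 7. Only the mutant at day 7 lay clear of its day 0 libraries. The change at day 7 was 0.42 (log2, SE 0.39) in WT and 0.45 (SE 0.39) in the mutant, with a mean of 0.43 (SE 0.28) and adjusted p = 0.273. Without WT replicate 1 of days 0 and 1 the mean was 0.49, adjusted p = 0.285.

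Stat3, the transcription factor of the pathway (chromosome 11, 100885098 to 100939540, minus strand), had the smallest ratio of highest to lowest level over the 17 libraries. WT replicates 1 and 2 held 128 and 138 CPM at day 0, 133 and 123 at day 1, 148 and 110 at day 2, and 150.3 and 104 at day 7. The mutant held 146 and 151 CPM at day 0, 116, 131 and 154 at day 1, 155 and 126 at day 2, and 168.6 and 169 at day 7. The WT libraries of days 2 and 7 lay on both sides of those of day 0. The change at day 7 was -0.07 (log2, SE 0.21) in WT and 0.18 (SE 0.21) in the mutant, and the mean of 0.06 (SE 0.15) had adjusted p = 0.806, or 0.03 and 0.926 without WT replicate 1 of days 0 and 1. The end of Stat3 shares 100885098 to 100885169 with Stat5a on the opposite strand, and the strand setting of the counts is not given in the sources used here, so reads of that stretch cannot be told apart.

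Socs3, the feedback inhibitor (chromosome 11, 117966079 to 117970047, minus strand), whose promoter held the STAT motif, did not pass the test at any day. WT replicates 1 and 2 held 85.3 and 145 CPM at day 0, 64.45 and 109.8 at day 1, 75.7 and 157.5 at day 2, and 142 and 125 at day 7. The mutant held 144 and 154 CPM at day 0, 106, 107 and 118 at day 1, 90.9 and 141 at day 2, and 141 and 123 at day 7. In WT, replicate 1 was below replicate 2 until day 2. In the mutant, the libraries of days 1, 2 and 7 all lay below those of day 0. The mean change at day 7 was 0.02 (log2, SE 0.25), adjusted p = 0.965, and its sign was negative without WT replicate 1 of days 0 and 1, at -0.15.

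Gbx2 (chromosome 1, 89927956 to 89931179, minus strand), a homeobox factor that can sustain self-renewal when overexpressed, fell at day 7 in the mean of both genotypes. The mutant held 70.3 and 55.0 CPM at day 0, 62.1, 41.1 and 81.5 at day 1, 35.5 and 54.55 at day 2, and 22.6 and 20.75 at day 7. WT replicates 1 and 2 held 32.3 and 75.1 CPM at day 0, 54.7 and 48.95 at day 1, 34.4 and 18.2 at day 2, and 43.9 and 14.5 at day 7. Mutant levels of day 7 lay below every earlier mutant library, whereas WT replicate 1 was no lower at day 7 than at day 0. Within WT the difference of log2(CPM + 0.5) between days 7 and 0 was 0.44 in replicate 1 and -2.34 in replicate 2. The mean change was -1.21 (log2, SE 0.36), adjusted p = 0.0261, from -0.88 (SE 0.51, adjusted p = 0.272) in WT and -1.53 (SE 0.52, adjusted p = 0.068) in the mutant. The call was lost without WT day 0 replicate 2 (adjusted p = 0.111), WT day 7 replicate 2 (0.0765), mutant day 0 replicate 1 (0.0926) or either mutant day 7 library (0.0711 and 0.0841). It was kept without WT replicate 1 of days 0 and 1, at -1.45.

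Junb (chromosome 8, 84974484 to 84978718, minus strand), an early response gene whose protein pairs within AP-1, was lower in each successive group mean of both genotypes. WT replicate 1 held 91.2, 88.45, 44 and 20.6 CPM at days 0, 1, 2 and 7, and replicate 2 held 35.7, 16.3, 13.1 and 11.3. The mutant held 66.85 and 56.3 CPM at day 0, 41.3, 60.1 and 32.7 at day 1, 32.4 and 28.0 at day 2, and 23.7 and 25.5 at day 7. Each WT library of replicate 1 lay above that of replicate 2 on the same day, and both genotypes at day 7 lay below all their day 0 libraries. The 2 WT libraries with the highest Junb, replicate 1 of days 0 and 1, were those with the highest stromal marker sums, and the part of those cells in the level was not tested. The mean change at day 7 was -1.66 (log2, SE 0.50), adjusted p = 0.0253, from -1.99 (SE 0.71, adjusted p = 0.0823) in WT and -1.32 (SE 0.70, adjusted p = 0.234) in the mutant. Without WT replicate 1 of days 0 and 1 it was -1.24, adjusted p = 0.0278. The call was lost without WT day 0 replicate 1 alone (adjusted p = 0.107), WT day 7 replicate 2 (0.0887), mutant day 0 replicate 1 (0.0769) or either mutant day 7 library (0.0823 and 0.0754). Junb shares 84974484 to 84974834 with Prdx2 on the opposite strand, where reads cannot be told apart either. Gbx2 and Pim1 each overlap 1 annotated gene that has no counts of its own here, so their counts may include its reads.

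Pim1 (chromosome 17, 29490753 to 29496112, plus strand), a kinase that promotes survival and growth, was the gene of the 8 that rose. WT replicates 1 and 2 held 124 and 60.9 CPM at day 0, 111 and 157 at day 1, 163 and 168 at day 2, and 170.6 and 184 at day 7. The mutant held 76 and 77.7 CPM at day 0, 72.0, 95.8 and 121 at day 1, 132.5 and 113 at day 2, and 123 and 136 at day 7. From day 2 on, every library of either genotype was above all day 0 libraries of its genotype. The mean change was 0.76 (log2, SE 0.21) at day 2, adjusted p = 0.0379, and 0.85 (SE 0.21) at day 7, adjusted p = 0.0103. At day 7 it was 0.94 (SE 0.30, adjusted p = 0.0578) in WT and 0.75 (SE 0.30, adjusted p = 0.114) in the mutant. The day 7 call of the mean held when each library was left out in turn and without WT replicate 1 of days 0 and 1, where the change was 1.15.

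Pim3 (chromosome 15, 88862186 to 88865726, plus strand), a related kinase, fell where Pim1 rose, and was called from day 1 on in the mean of both genotypes. WT replicates 1 and 2 held 202 and 314 CPM at day 0, 120 and 214 at day 1, 169.5 and 198 at day 2, and 131 and 159 at day 7. The mutant held 258 and 263.5 CPM at day 0, 127, 175 and 156 at day 1, 152 and 153 at day 2, and 139 and 137 at day 7. In the mutant all 7 libraries in 2i lay below both of day 0, by the first day. The mean change was -0.70 (log2, SE 0.18) at day 1, adjusted p = 0.04, then -0.63 (SE 0.19) at day 2, adjusted p = 0.0465, and -0.87 (SE 0.19) at day 7, adjusted p = 0.0042. At day 7 it was -0.83 (SE 0.26, adjusted p = 0.0568) in WT and -0.92 (SE 0.26, adjusted p = 0.0361) in the mutant. The mutant call was lost without either of its day 0 libraries (adjusted p = 0.148 and 0.121), either of its day 7 libraries (0.159 and 0.165) or mutant day 2 replicate 2 (0.05). The day 7 call of the mean held when each library was left out in turn and without WT replicate 1 of days 0 and 1, where the change was -1.01.

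At the earlier days few of the 8 genes passed. In the mean of both genotypes, 1 was called at day 1 (Pim3, lower), where 4.86% of all genes tested were called, and 2 at day 2 (Pim1 higher, Pim3 lower), where 10.7% were. These calls were lost when 1 library was left out in many cases, for Pim3 at day 1 in 11 of 17 and at day 2 in 14 of 17, and for Pim1 at day 2 in 10 of 17. Within each genotype, edgeR and DESeq2 both called 0 of the 8 at days 1 and 2. At an unadjusted p under 0.05 there were 1 in WT at day 1 (Pim3) and 1 at day 2 (Pim1), and in the mutant 2 at day 1 (Lifr and Pim3) and 2 at day 2 (Pim3 and Pim1). The shares of all genes called there were 0.202% and 2.16% in WT and 1.41% and 2.92% in the mutant. The days of a genotype are each compared with the same day 0 libraries.

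Beside the 8 genes, 52 further genes of the pathway were listed, of which 50 passed the filter. At day 7 in the mean of both genotypes 9 rose and 10 fell, where 27.3% of all genes tested were called, 13.7% in each direction. Their median change was 0.11 on the log2 scale, against 0.011 over all genes. Of the 6 tested ligands of the IL-6 family 1 rose and 1 fell, and of 4 other receptors 1 rose and 2 fell. Among 8 kinases and adaptors 0 were called by edgeR. Of 6 other STATs 3 rose and 1 fell, of 13 other inhibitors 2 rose and 3 fell, of 9 other targets 2 rose and 2 fell, and of 4 family members 0 rose and 1 fell. Of these 19 calls, 8 were lost when 1 library was left out. Of 17 such fits the call was lost in 13 for Pias2, 10 for Stat4, 8 for Socs1, 6 for Mcl1, 5 for Stat5a, 4 each for Stat5b and Il11ra1 and 2 for Pias3, genes named after their values were seen.

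Osm, which encodes oncostatin M, a ligand that also signals through gp130, rose 52.6-fold (log2 5.72, SE 0.59, adjusted p = 3.03e-05). It was at 0.421 ± 0.0268 CPM in WT and 0.0766 ± 0.00515 in the mutant at day 0, and at 15.6 ± 3.69 and 5.92 ± 0.485 at day 7 (SD, n = 2 each). Both mutant day 0 libraries held 4 counts of Osm, so this fold rests on few counts. Its receptor chain Osmr was at 1.515 CPM or less in all libraries and had adjusted p = 0.576. Lif itself lay between 3.99 and 12.2 CPM, with a change of 0.39 (log2, SE 0.31) and adjusted p = 0.384. Cntfr, which encodes the receptor chain for ciliary neurotrophic factor, fell 14.9-fold (adjusted p = 8.32e-05), and Il6ra, which encodes the IL-6 receptor chain, rose 10.8-fold (adjusted p = 0.000131). Jak1, the main kinase bound to gp130, lay between 39.0 and 70.9 CPM and had adjusted p = 0.444.

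Tfcp2l1 and Klf4, transcription factors of naive pluripotency that respond to STAT3, rose, opposite in direction to Gbx2, Junb and Pim3. Tfcp2l1 was at 245 and 308 CPM in WT and 261 and 365 in the mutant at day 0, and at 1144 and 1150.0 in WT and 1552 and 1665 in the mutant at day 7. It rose 4.62-fold (log2 2.21, SE 0.20, adjusted p = 1.34e-05), and Klf4 rose 3.55-fold (adjusted p = 9.74e-05). Myc, a growth regulator and another STAT3 target, fell 8.2-fold (adjusted p = 0.000447). Socs2, a relative of Socs3, fell 2.6-fold (adjusted p = 0.00105). Pim2, the remaining Pim kinase, fell 6.07-fold (log2 -2.60, SE 0.52, adjusted p = 0.00286), but WT day 0 held 229.9 CPM in replicate 1 and 25.6 in replicate 2. Without WT replicate 1 of day 0 the change of Pim2 was -1.44 and it was still called. The calls of Osm, Cntfr, Il6ra, Tfcp2l1, Klf4, Myc, Socs2 and Pim2 held when each library was left out in turn and without WT replicate 1 of days 0 and 1.

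**Figure D3:**
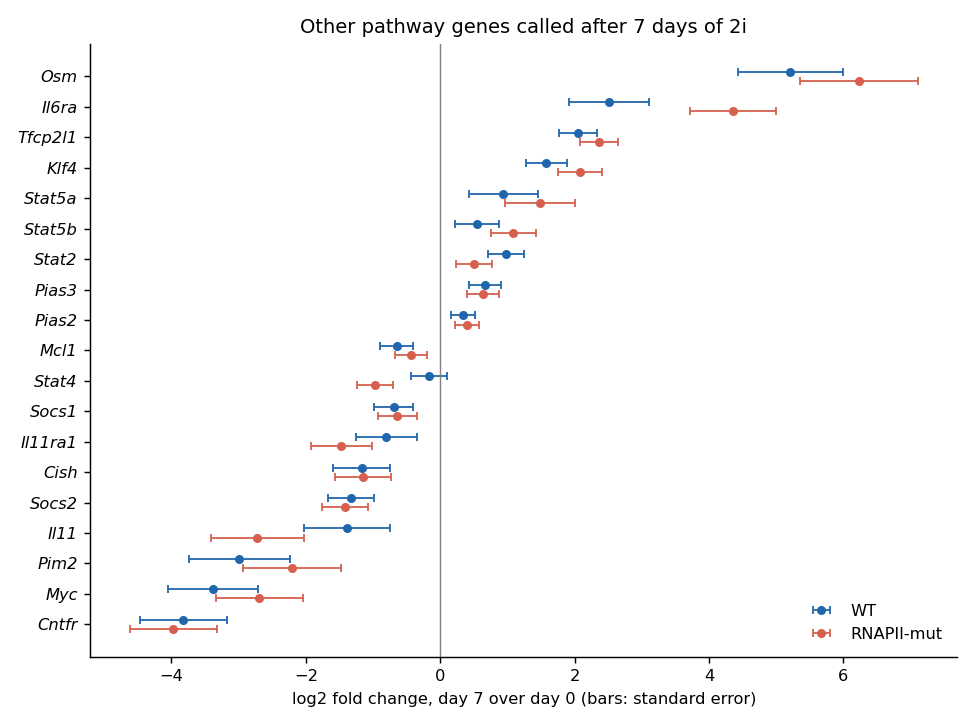
Log2 fold change, day 7 over day 0 (x axis; bars are the standard error), in WT (blue) and RNAPII-mut (red), for the 19 further pathway genes called in the mean of both genotypes. Osm lies highest and Cntfr lowest in both genotypes.

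The genotypes were compared to ask whether the slow polymerase changed these levels. At each of days 0, 1, 2 and 7, edgeR and DESeq2 both called 0 of the 8 genes, and 0 had an unadjusted p under 0.05. The lowest adjusted p was 0.697 at day 0, 0.453 at day 1, 0.945 at day 2 and 0.57 at day 7, where Stat3 came nearest. At day 7 both mutant libraries of Stat3, 168.6 and 169 CPM, lay above the WT libraries, 150.3 and 104. On that day 3 of the 8 genes had no overlap between the genotypes, and the share over all genes is not given here. The shares of all genes called between the genotypes were 0.28%, 0.417%, 0.0716% and 0.0976% at these days. In simulated counts the day 7 test found 4 of 100 changes of 2-fold and 48 of 100 of 4-fold. The changed genes were drawn at random from all genes tested, so these rates are not those of the 8 genes. The 0 calls do not show equal levels.

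Averaged over the 4 days, 0 of the 8 genes were called by edgeR or DESeq2, where 12.8% of all genes tested were called, and 1, Pim1, had an unadjusted p under 0.05. Pim1 was lower in the mutant at -0.41 (log2, SE 0.15), 1.33-fold, adjusted p = 0.0879. Its group means were 76.9 ± 1.22, 96.3 ± 24.6, 122.5 ± 14.1 and 129.6 ± 9.06 CPM in the mutant at days 0, 1, 2 and 7, below 92.4 ± 44.65, 134 ± 32.85, 166 ± 3.12 and 177 ± 9.42 in WT (SD, n = 2, and n = 3 in the mutant at day 1). At days 2 and 7 the Pim1 libraries of the genotypes did not overlap, and at days 0 and 1 they did. Pim1 was 1 of 3 of the 8 genes without overlap at day 2, and 1 of 3 at day 7. The share over all genes is not given here, so the lack of overlap does not set Pim1 apart. The call appeared without WT day 0 replicate 2, at -0.51 and adjusted p = 0.0173. The average of the other 7 genes lay between -0.23 for Il6st and 0.20 for Gbx2.

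The test of whether the 2i response differed between genotypes called 0 of the 8 genes at day 1, 2 or 7 by edgeR or DESeq2, with 0 at an unadjusted p under 0.05. At day 7 the difference of the responses, mutant minus WT, lay between -0.65 for Gbx2 (SE 0.72) and 0.67 for Junb (SE 0.97). For Pim1 it was -0.19 (SE 0.42) and for Pim3 -0.09 (SE 0.37). By edgeR 0% of all genes tested were called in these tests, with 118, 366 and 1178 at an unadjusted p under 0.05 at days 1, 2 and 7, and DESeq2 called 67 at day 7. The standard errors of the 8 differences at day 7 ran from 0.29 to 0.97.

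Of the 50 further pathway genes, 5 were higher and 3 lower in the mutant on average over the days, where 12.8% of all genes tested were called. Jund, a relative of Junb, was 2.08-fold higher (log2 1.05, SE 0.16, adjusted p = 0.0015), with every mutant library, at 202.5 CPM or more, above every WT library, at 170.5 or less. The JAK kinases Jak3 (1.52-fold, adjusted p = 0.00582) and Tyk2 (1.45-fold, adjusted p = 0.00776) were higher. The ligands Osm (3.93-fold, adjusted p = 0.00402) and Cntf (1.85-fold, adjusted p = 0.00821) were lower. The calls of these 5 held when each library was left out in turn. The other 3, Pias4 and Bcl3 (higher) and Ier3 (lower), lost theirs in 15, 11 and 12 of the 17 fits with 1 library left out.

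Across the 8 group means of log2(CPM + 0.5), Pim1 ran with Il6st (r = 0.92) and against Junb (r = -0.94), and Pim3 ran with Lifr (r = 0.83). These correlations rest on 8 group means of few libraries each, and carry no test. Among 10092 other genes with a mean of at least 5 CPM, the profile most like that of Pim1 was Scube3 (r = 0.998) and then Trim41 (r = 0.99). For Pim3 these were Rmdn3 (0.974) and Tfe3 (0.971), for Junb Lin28b and Heatr1 (0.992 each), and for Gbx2 Otud5 (0.981) and Trim67 (0.973). For Lifr they were Zfp532 (0.982) and Jarid2 (0.978), for Il6st Parm1 (0.988) and Pofut2 (0.982), for Stat3 Tbc1d20 (0.967) and Tapt1 (0.966), and for Socs3 Slc25a42 (0.98) and Oraov1 (0.977). Lin28b, an RNA-binding protein that blocks let-7 maturation, fell from group means of 39.2 CPM in WT and 37 in the mutant at day 0 to 5.45 and 12.9 at day 7.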

How the data were processed

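Total RNA of WT and RNAPII-mut E14 cells was sequenced in 17 libraries, grouped by the genotype and day in their titles. The deposited values are raw counts per gene symbol. STAR and mm10 are the aligner and build per the submitters' processing notes. The counting tool, annotation, strand setting and handling of multi-mapping reads are not given in the sources used here. All 17 sample columns were used. Of 20621 genes, 2692 had 0 counts throughout.

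Counts were fitted with edgeR 4.0.16 (R 4.3.3): TMM, filterByExpr on the 8 groups (15365 genes), a single quasi-likelihood fit of the 17 libraries with group coefficients, 14 contrasts and 3 added means of both genotypes. Residual degrees of freedom were 9, and the biological coefficient of variation common to all genes was 0.333. Calls used a two-sided Benjamini-Hochberg adjusted p under 0.05 over all genes. The SE is the size of the log2 change divided by the square root of the F statistic. CPM use TMM-scaled totals. Group means ± SD have n = 2, or 3 in the mutant at day 1. The procedure was run on simulated counts with 100 genes changed 2-fold and 100 changed 4-fold. For mutant minus WT at day 7 it called 4 and 48 of them in the right direction. For the mutant, day 7 minus day 0, these were 8 and 55, and for the mean of both genotypes 41 and 82. Of the unchanged genes 2, 2 and 11 were called. The changed genes were drawn at random from all genes tested, with all other genes equal in every group. These rates are thus not those of the 8 genes. A gene that was not called may still differ.

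The 8 genes, the lists and the naming rule were chosen with earlier results of these data known. The rule named the 8 genes throughout, up to 6 called pathway genes per contrast by adjusted p, 6 set pathway genes, and the 2 genes most alike in profile, leaving out symbols of predicted genes. Gene positions are from GENCODE M21 (GRCm38, mm10), and promoters from RefSeq (GRCm38.p6), with all 8 symbols matched.

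Alternatives were DESeq2 1.42.0, DESeq2 size factors or library totals in edgeR, fitting only the compared groups, no filter or a minimum of 1 CPM in 4 libraries, replicate number as a block, a term for the WT replicate series, no WT replicate 1 of days 0 and 1, and leaving out each library. A group left with 1 library was assumed to vary like the others.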

Additional observations from a re-analysis of the deposited data

How the results depend on the processing

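The count of the 8 genes called moved most at day 7 within a genotype. For WT at day 7 it was 3 by DESeq2, 1 with DESeq2 size factors, 1 with library totals, 3 with the WT series term and 2 without WT replicate 1 of days 0 and 1, against 0. For the mutant at day 7 it was 2 by DESeq2, 6 with only the compared groups, 3 with the series term and 3 without those WT libraries, against 1. For WT at day 2 the count was 1 with the series term and 1 without those libraries. For the mutant it was 1 at day 1 with only the compared groups, with the series term and without those libraries, and at day 2 it was 3, 1 and 1 under the same settings. For the mean of both genotypes at day 1 it was 2 by DESeq2, 0 with only the compared groups, 2 with the series term and 3 without those libraries, and at day 2 it was 1 with library totals, 0 with only the compared groups and 4 with the series term. Counts within 1.5-fold of the main count are not listed. Lifr, not called in the main fit, was called in the mean at days 1 and 2 by DESeq2 and with the series term. The fits of only the compared groups used fewer libraries, while the main fit shared its estimate of spread between the genotypes. Libraries of the same group correlated at r = 0.953 to 0.978 in WT and at 0.986 to 0.994 in the mutant. The causes of the moves in count were not tested.

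Leaving out 1 library at a time gave counts of 0 to 1 for WT at day 2, 0 to 3 for WT at day 7, 0 to 3 for the mutant at day 7, 0 to 1 for the average of the genotypes, and, for the mean of both genotypes, 0 to 3 at day 1, 0 to 3 at day 2 and 2 to 4 at day 7. Signs turned only for changes near 0 or split between the WT replicates. For WT at day 7 the log2 change ranged from -1.02 to 0.17 for Lifr, -0.08 to 0.79 for Il6st, -0.36 to 0.18 for Stat3 and -0.12 to 0.65 for Socs3. For the mean at day 1 it ranged from 0 to 0.36 for Il6st, -0.28 to 0.33 for Gbx2 and -1.21 to 0.05 for Junb, at day 2 from -0.03 to 0.55 for Il6st, -0.18 to 0.04 for Stat3 and -0.48 to 0.04 for Socs3, and at day 7 from -0.09 to 0.18 for Stat3 and -0.15 to 0.24 for Socs3. Socs3 in the mean at day 7 was also 0.00 by DESeq2, 0.00 with DESeq2 size factors, -0.04 with library totals, 0.00 with the stricter filter and -0.15 without WT replicate 1 of days 0 and 1, where in WT alone it was -0.12. Of 748 values for the 8 genes with 1 library left out, 658 kept direction and call, 50 lost a call, 20 gained one and 20 turned sign; of 392 under other settings, 350 kept both, 4 lost a call, 32 gained one and 6 turned sign. For calls of other pathway genes, 948 of 1173 values with 1 library left out and 560 of 611 under other settings were still called, all in the same direction. No scaling moved the median of all genes by more than 0.098.

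Libraries of the same replicate number deviated together from their group means in 6 of 6 WT pairs of days (r = 0.26 to 0.764 across genes) but in 2 of 6 mutant pairs (-0.59 to 0.263). In the 16 pairs between genotypes r ran from -0.532 to 0.672. The labels do not say what the numbers pair. With replicate number as a block the WT count at day 7 was 3 (Junb, Pim1 and Pim3) against 0. Mutant day 1 replicate 3, the only library of its number, adds nothing to that fit.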
